A study of Danio rerio with 6 samples.

Results

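The data concern *noxo1a*, the zebrafish gene for NADPH oxidase organizer 1a, in guts taken after injection of IL-26. The gene has 1 row (transcript NM_001077584, protein coding) of the 16134 transcript rows in the count table, and it was chosen because its row changed strongly between the groups compared here. Its level and its change between groups are therefore given as a description, with no test. Wild-type larvae were injected at 5 days post-fertilization (dpf) with rzIl26, recombinant zebrafish IL-26 protein, or with BSA, bovine serum albumin, as the control protein. The injection was made into the gut and the swim bladder, and guts were dissected 1 h later. Each library pooled 10 to 15 guts, and there were 3 libraries per group, labelled as biological replicates. Whether the pools came from separate clutches is not given in the sources used here. A single injected amount of protein was examined at a single time, so neither dose nor time course can be read from these libraries.

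NADPH oxidases move electrons from NADPH across a membrane onto oxygen and so make superoxide, which becomes hydrogen peroxide. In mammals, the catalytic subunit NOX1 of the colon epithelium works with the membrane subunit p22phox (gene *cyba*), the organizer NOXO1, the activator NOXA1 and the GTPase Rac. NOXO1 holds the complex together: it binds membrane lipids through its PX domain, p22phox through its paired SH3 domains and NOXA1 through its proline-rich tail. It lacks the autoinhibitory region of p47phox (gene *ncf1*), the organizer of the phagocyte oxidase NOX2 (gene *cybb*), which has to be phosphorylated before it opens. In the mouse, loss of NOXO1 also disturbs the otoconia of the inner ear.

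Total counts ranged from 15156164 to 22219894 per library. Gut identity was clear in both groups: *vil1*, the microvillus protein villin, had 3363, 3042 and 3170 CPM (counts scaled to a common library size with TMM factors) in rzIl26 libraries, against 3198, 2872 and 3197 CPM in BSA libraries. Other enterocyte markers such as *fabp6*, *cdh17* and *cldn15la* were also abundant, whereas *fabp2* was near 0 (0.172 to 1.66 CPM over the 6 libraries). Liver transcripts differed between libraries within each group, with a summed level of 7 liver genes of 1703 to 7563 CPM in rzIl26 libraries and 2047 to 6118 CPM in BSA libraries.

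In the gut libraries, *noxo1a* was low after BSA and several-fold higher after rzIl26. It had 63.3, 76.9 and 115 CPM in rzIl26 replicates 1 to 3, from 1026, 1791 and 2120 counts. It had 5.78, 13.2 and 4.18 CPM in BSA replicates 1 to 3, from 111, 199 and 81 counts. All 3 rzIl26 libraries lay above all 3 BSA libraries. Such a separation, with rzIl26 higher, was seen in 18.7% of all rows tested, and a separation in either direction in 39.6%, and nothing is read from it for a gene chosen on this contrast. The mean was 85.2 ± 26.98 CPM after rzIl26 and 7.73 ± 4.82 CPM after BSA (SD, n = 3 each), a ratio of 11.0. Over the 9 pairs of 1 rzIl26 and 1 BSA library the ratio ran from 4.79 to 27.6. The edgeR quasi-likelihood fit gave a log2 fold change of 3.48 (SE derived from the fit, 0.44), an 11.2-fold difference.

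**Figure D1:**
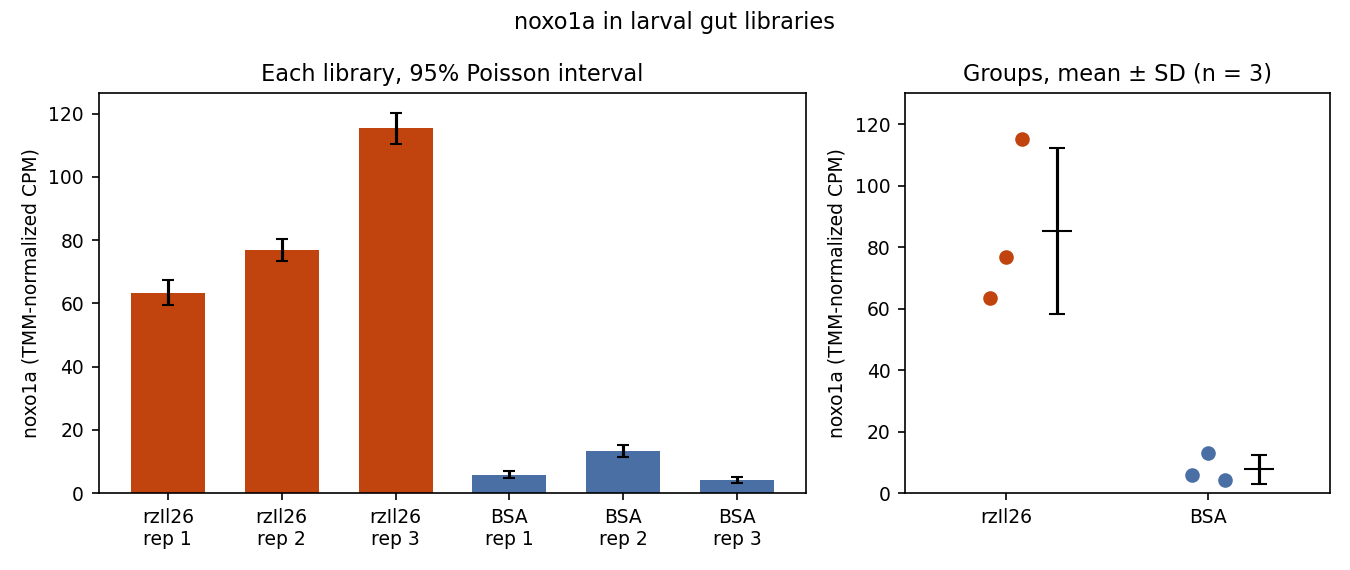
Left, *noxo1a* level (TMM-normalized CPM) in each library, with bars for libraries and error bars for the 95% Poisson interval of the count; right, the same values as points with the group mean ± SD (n = 3). The 3 rzIl26 libraries sit between 63.3 and 115 CPM and the 3 BSA libraries between 4.18 and 13.2 CPM.

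The spread within groups was larger than counting error. The exact 95% Poisson intervals, which cover counting error only, were 59.5 to 67.3, 73.3 to 80.5 and 110 to 120 CPM in rzIl26 replicates 1 to 3, and 4.76 to 6.96, 11.4 to 15.2 and 3.32 to 5.199 CPM in BSA replicates 1 to 3. In the rzIl26 group none of these intervals overlapped, and the highest library had 1.82 times the level of the lowest. In the BSA group, replicate 2 stood above the other two, and the highest library had 3.16 times the level of the lowest. The size of the *noxo1a* difference moved most with BSA replicate 2: without it the log2 fold change was 4.09, while leaving out each of the other libraries gave 3.18 to 3.66. The same library was also the BSA library richest in liver transcripts (6118 CPM, against 2047 and 2284 CPM in BSA replicates 1 and 3). Among libraries poor in liver transcripts, *noxo1a* had 63.3 CPM in rzIl26 replicate 1, against 5.78 and 4.18 CPM in BSA replicates 1 and 3, a ratio of 12.7. Among those rich in liver transcripts it had 76.9 and 115 CPM in rzIl26 replicates 2 and 3, against 13.2 CPM in BSA replicate 2, a ratio of 7.27. With liver content as a covariate, chosen after the data were seen, the log2 fold change was 3.32. The part of liver content in the spread of *noxo1a* was not tested.

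In the order of fold changes among the 1894 rows called with a mean of at least 50 counts, *noxo1a* was number 4. Since the gene was chosen for its strong change in this same contrast, a high place is a description and no further result. Just above it stood the fin-fold gene *and2* (log2 fold change 4.20), the relaxin-family hormone gene *rln3a* (3.76) and the fin-fold gene *and3* (3.61). Just below it stood *zgc:92590* (3.30), the lipoxygenase gene *alox5b.3* (3.13) and the intelectin gene *itln3* (3.13). The *noxo1a* row had a mean of 888 counts per library, and among these neighbours in the order the mean ran from 58.7 counts for *and3* and *alox5b.3* to 1099 counts for *itln3*.

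The other subunits of the oxidase were examined next. Each of these genes was tested over all transcript rows, although the list was drawn up with earlier results of these data known. Over all transcript rows, 9.27% were called higher and 9.6% lower (18.9% in all) after rzIl26 (edgeR's quasi-likelihood test, Benjamini-Hochberg adjusted p under 0.05). Of 25 further genes listed for the oxidase, its adaptors and Rac, 16 had a row and 13 were tested; 3 rose and 1 fell. Their median log2 fold change was 0.25, against 0.01 for all rows tested.

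Among catalytic subunits, *nox1* rose. It had 16.8, 28.02 and 20.3 CPM in rzIl26 replicates 1 to 3, against 3.23, 6.71 and 8.31 CPM in BSA replicates 1 to 3. The groups did not overlap, and the means were 21.7 ± 5.72 CPM after rzIl26 and 6.08 ± 2.60 CPM after BSA (SD, n = 3 each). The log2 fold change of *nox1* was 1.84 (SE 0.34), a 3.59-fold rise, with an adjusted p of 0.0136 by edgeR's quasi-likelihood test. This call held under all 15 alternatives, with adjusted p-values up to 0.047, and with any single library removed the log2 fold change stayed between 1.53 and 2.15. The phagocyte catalytic subunit *cybb* had 7.96, 7.38 and 7.07 CPM after rzIl26, against 6.87, 7.24 and 4.75 CPM after BSA. These groups overlapped, and the log2 fold change of 0.25 (SE 0.18) did not pass the test (adjusted p = 0.358). Whether *nox1* changed more than *cybb* was not tested. The genes *nox4*, *nox5*, *duox* and *duox2* were not analysed here, since no row of the table carries their symbols.

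Of the membrane partners, *cyba*, which encodes the p22phox subunit shared by several oxidases, had 68.8, 74.7 and 62.4 CPM in rzIl26 libraries, against 46.1, 53.1 and 57.8 CPM in BSA libraries. The groups did not overlap and the rise was small (log2 fold change 0.39, SE 0.11, edgeR adjusted p = 0.0479). The *cyba* call did not survive removal of any 1 of the 6 libraries (log2 fold change 0.30 to 0.47, adjusted p up to 0.14). It was also lost with the replicate block (adjusted p = 0.0689), upper-quartile factors (0.0611), no filter on low counts (0.0541) and liver content as a covariate (0.0643). The gene *nrros*, listed with the membrane partners, stayed near 1 CPM in every library and did not pass the test.

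Other organizers and activators were read next. The paralog *noxo1b* was close to absent, with 4, 6 and 1 counts in rzIl26 libraries, against 4, 5 and 1 counts in BSA libraries, and lay below the filter. The row of *noxa1*, the activator that partners NOXO1 in mammals, was listed at 0 counts in every library. With 3 counts as the limit that a 0 allows, its level was under 0.129 to 0.199 CPM per library, counting error only. In this table, 2701 rows were at 0 in every library, among them macrophage genes such as *c1qa* and *mpeg1.1*, and how reads shared between transcripts were counted is not given in the sources used here. A listed 0 is therefore not read as lack of the transcript.

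The phagocyte organizer *ncf1* had 96.6, 71.5 and 80.2 CPM in rzIl26 libraries, against 53.7, 56.9 and 64.0 CPM in BSA libraries. It rose by 0.51 on the log2 scale (SE 0.13, edgeR adjusted p = 0.0329), without overlap between the groups. This call was lost without rzIl26 replicate 1 or 3 and without each BSA replicate (adjusted p 0.0529 to 0.106), and with the replicate block (adjusted p = 0.0502). The modulator *ncf4* (p40phox) was at -0.01 on the log2 scale (SE 0.16, adjusted p = 0.984), with overlap between the groups. The adaptor gene *sh3pxd2aa* (Tks5), which shares the PX and SH3 domain layout of organizers, showed a difference of 0.25 on the log2 scale (SE 0.26, adjusted p = 0.556).

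**Figure D2:**
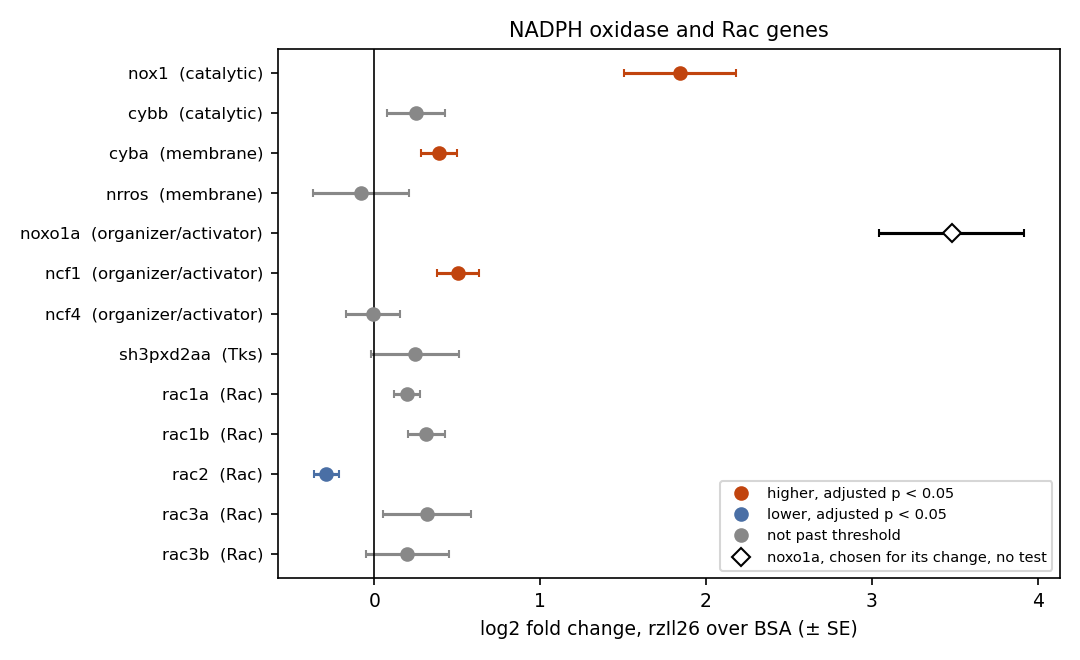
Log2 fold change of rzIl26 over BSA (± SE) for the oxidase and Rac genes named here, by role; red points were called higher and blue points lower at an adjusted p under 0.05 (edgeR), grey points passed neither way, and the open diamond is *noxo1a*, for which no test is given. *noxo1a* lies at 3.48 and *nox1* at 1.84, and the other genes lie between -0.29 and 0.51.

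Rac GTPases switch on NOX1 and NOX2 complexes. The log2 fold changes of the 5 Rac genes lay between -0.29 and 0.32. The leukocyte gene *rac2* had 77.1, 73.4 and 77.2 CPM in rzIl26 libraries, against 93.8, 85.9 and 98.2 CPM in BSA libraries, and fell by 0.29 on the log2 scale (SE 0.08, edgeR adjusted p = 0.0412). It no longer passed after removal of any 1 of the 6 libraries (log2 fold change -0.34 to -0.25, adjusted p up to 0.118). It was also lost with the replicate block (adjusted p = 0.0576), with no filter (0.0512), with liver content as a covariate (0.0673) and with library totals alone, where the log2 fold change was -0.13 (adjusted p = 0.332). The ubiquitous *rac1a* (0.20, SE 0.08, adjusted p = 0.119) and *rac1b* (0.31, SE 0.11, adjusted p = 0.0911) did not pass, although both sets of values lay higher after rzIl26 without overlap. They passed with library totals alone (adjusted p = 0.0277 and 0.0412), and *rac1b* without BSA replicate 3 (0.0304). Neither *rac3a* nor *rac3b* passed. Over the 17 Rac genes and regulators listed, 9 were tested, 1 fell and none rose (all rows tested: 9.6% lower, 9.27% higher).

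Protein kinase C enzymes phosphorylate oxidase organizers in phagocytes. Of 8 tested, 1 passed the test, against 18.9% of all rows tested. This was *prkci*, an atypical isoform, with 54.3 ± 1.96 CPM after rzIl26 and 40.6 ± 1.90 CPM after BSA (SD, n = 3 each; log2 fold change 0.42, SE 0.08, edgeR adjusted p = 0.0134). Without BSA replicate 1 its adjusted p was 0.0556. The isoforms *prkcq* (log2 fold change 0.40, adjusted p = 0.083) and *prkcha* (-0.76, adjusted p = 0.117) came next in order of p and did not pass, although *prkcq* passed with library totals alone (0.56, adjusted p = 0.0328).

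The oxidase draws on NADPH. Of 12 tested genes listed for NADPH supply, direct or indirect, 3 rose and none fell (all rows tested: 9.27% higher, 9.6% lower), and the median log2 fold change was -0.01. Mitochondrial transhydrogenase *nnt* had 219.6 ± 3.44 CPM after rzIl26 and 152 ± 12.8 CPM after BSA (SD, n = 3 each; log2 fold change 0.53, SE 0.08, edgeR adjusted p = 0.00914), and passed whichever library was removed. The transketolase gene *tktb* rose by 0.29 (SE 0.06, adjusted p = 0.0226) and the malic enzyme gene *me3* by 0.41 (SE 0.09, adjusted p = 0.0251). Both genes missed the threshold after 5 of the 6 single-library removals (highest adjusted p 0.0811 for *tktb* and 0.0867 for *me3*), and *me3* also with the replicate block (adjusted p = 0.0502). Of the pentose phosphate pathway, the dehydrogenase *pgd* was at -0.11 on the log2 scale (adjusted p = 0.316).

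Genes that remove superoxide and peroxide followed. Of 21 tested, 6 fell and 1 rose (all rows tested: 9.6% lower, 9.27% higher). The median over these 21 genes was -0.13 on the log2 scale. The glutathione peroxidase *gpx4a*, which reduces lipid peroxides, had 12.2, 10.5 and 15.9 CPM in rzIl26 libraries, against 23.3, 26.6 and 26.7 CPM in BSA libraries. It fell by 0.99 on the log2 scale (SE 0.16, edgeR adjusted p = 0.0103), and passed whichever library was removed. This is the larger of 2 rows of the gene. The superoxide dismutase *sod1* fell by 0.36 (SE 0.06, adjusted p = 0.0100) and the peroxiredoxin *prdx2* by 0.34 (SE 0.07, adjusted p = 0.0174). Catalase (*cat*), named after its values were seen, had 331 ± 58.4 CPM after rzIl26 and 513 ± 61.4 CPM after BSA (SD, n = 3 each; log2 fold change -0.63, SE 0.14, adjusted p = 0.0239). The thioredoxin reductase *txnrd3* was the gene that rose (log2 fold change 0.31, SE 0.07, adjusted p = 0.026). The peroxiredoxins *prdx6* (-0.32, adjusted p = 0.0179) and *prdx3* (-0.28, adjusted p = 0.0375) were the other 2 that fell, and they missed the threshold after 3 and 6 of the single-library removals (highest adjusted p 0.0667 and 0.117). The *prdx3* call was also lost with the replicate block (adjusted p = 0.0578). The number of falls depended on scaling, since library totals alone left 2 lower and 1 higher, with *sod1* at an adjusted p of 0.0534, *prdx2* at 0.0955, *prdx6* at 0.170 and *prdx3* at 0.298. The *cat* call was lost without rzIl26 replicate 2, BSA replicate 1 or BSA replicate 2, and the *prdx2* call without rzIl26 replicate 2 or 3 and BSA replicate 1 or 2 (adjusted p up to 0.0743 and 0.0623). The *txnrd3* call was lost without the same libraries as that of *prdx2* (adjusted p up to 0.0849).

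The Nrf2 pathway senses peroxide and drives antioxidant genes. Of its 13 genes tested, 1 rose and 2 fell (all rows tested: 9.27% higher, 9.6% lower). The median over these 13 genes was -0.01 on the log2 scale. The inhibitor *keap1a*, which holds Nrf2 back, had 130.3 ± 7.72 CPM after rzIl26 and 87.7 ± 3.82 CPM after BSA (SD, n = 3 each; log2 fold change 0.57, SE 0.08, edgeR adjusted p = 0.00665), and this call held under all 15 alternatives. The Nrf2 genes *nfe2l2a* (-0.30, SE 0.08, adjusted p = 0.0372) and *nfe2l2b* (-0.63, SE 0.17, adjusted p = 0.0410) fell. Each missed the threshold after 5 of the 6 single-library removals (highest adjusted p 0.114 and 0.119), and with library totals alone (adjusted p = 0.197 and 0.0977). The *nfe2l2a* call was lost with the replicate block (adjusted p = 0.0731) and with liver content as a covariate (0.0525) as well. Classical targets such as *hmox1a* (0.57, adjusted p = 0.147), *gclc* (-0.05) and *gclm* (0.12) did not pass. The result for *hmox1a* depended on the setting, with the same direction in all 15 alternatives and adjusted p-values from 0.0109 to 0.315. Among aquaporins that let peroxide through membranes, 1 of 4 tested changed, against 18.9% of all rows tested. The gut gene *aqp8a.2* fell, with 125 ± 8.41 CPM after rzIl26 and 183 ± 8.33 CPM after BSA (SD, n = 3 each; log2 fold change -0.54, SE 0.08, adjusted p = 0.00823).

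**Figure D3:**
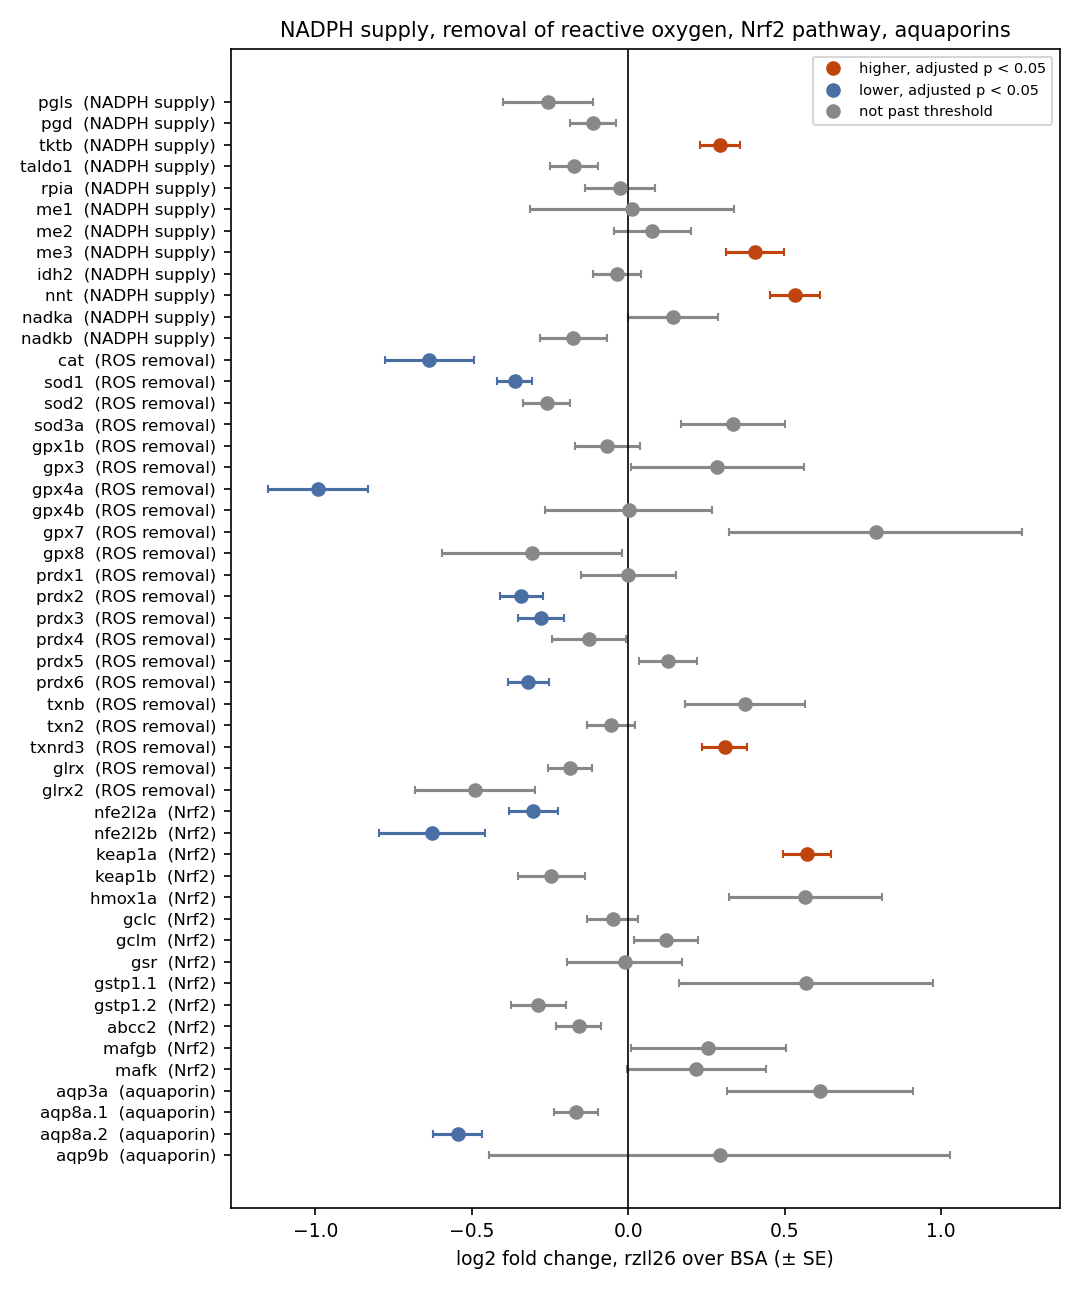
Log2 fold change of rzIl26 over BSA (± SE) for the tested genes of NADPH supply, removal of reactive oxygen species (ROS), the Nrf2 pathway and aquaporins; red points were called higher, blue points lower and grey points neither at an adjusted p under 0.05 (edgeR). Blue points are mostly in the ROS removal group, the largest group plotted. There 6 of 21 tested genes fell and 1 rose (all rows tested: 9.6% lower, 9.27% higher).

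Which transcripts followed *noxo1a* most closely across the 6 libraries was examined by the distance between log2 CPM profiles, each centred on its own mean. This is a description: the libraries form 2 groups, so genes that differ strongly between groups are alike on that account. Of 8485 rows with a mean of at least 50 counts, 6.18% had a Pearson r of at least 0.9 with *noxo1a*. The 8 nearest rows had distances of 0.51 to 0.74 (log2 units, root mean square), against a median of 1.88 over all rows, and r of 0.967 to 0.995. They were, in order, *zgc:92590*, the heparan sulfate sulfotransferase gene *hs3st1l2*, transcript NM_199778 (without a symbol here), the cholesterol 25-hydroxylase gene *ch25h*, the adaptor gene *bcar3*, the cytokine gene *il1b*, the dendritic cell maturation gene *cd83* and the neutrophil growth factor gene *csf3b*.

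The distance takes in the spread within groups, so likeness there is part of how these rows were picked and is no further result. The *il1b* transcript had 36.5, 35.7 and 36.2 CPM in rzIl26 replicates 1 to 3, level where *noxo1a* was not. It had 6.67, 12.0 and 5.01 CPM in BSA replicates 1 to 3, so that BSA replicate 2 was high for it as for *noxo1a*. The *cd83* transcript (r = 0.995) had 6.60, 9.48 and 11.9 CPM after rzIl26, in the same order as *noxo1a*, and 1.67, 2.72 and 1.45 CPM after BSA. By contrast, *zgc:92590* was level after BSA (3.65, 3.72 and 3.61 CPM) and had 28.9, 33.5 and 45.7 CPM after rzIl26. The partner gene *nox1* was number 41 by distance (1.09) and number 771 by r (0.868). Its BSA values did not share the high replicate 2, since BSA replicate 3 was highest.

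**Figure D4:**
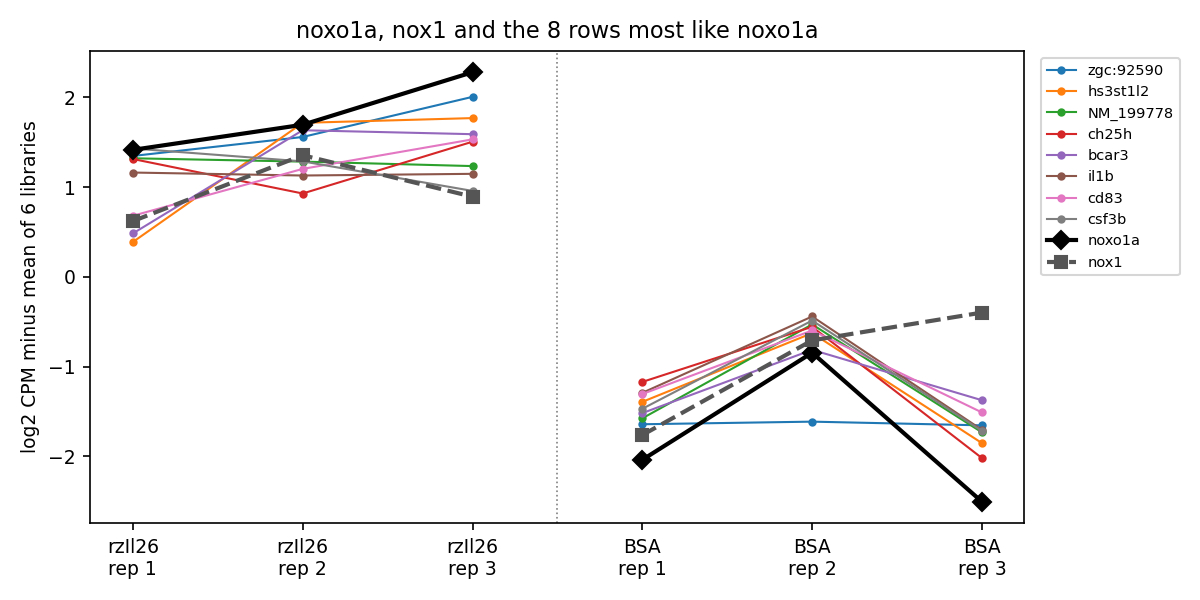
Log2 CPM minus the mean of the 6 libraries for *noxo1a* (black diamonds), *nox1* (grey squares) and the 8 rows nearest to *noxo1a* (colours); lines join libraries of 1 group only to guide the eye. All 10 rows lie above 0 in the 3 rzIl26 libraries and below 0 in the 3 BSA libraries.

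Markers of other cells that a gut dissection can hold were compared with *noxo1a*, because in pooled tissue more cells of a type and more RNA per cell cannot be told apart. Over all rows tested, 9.27% were called higher and 9.6% lower, the shares to set beside each marker list below. The groups lay apart without overlap, in either direction, in 39.6% of all rows tested. For a summed list, the exact permutation test of 3 libraries against 3 cannot give a p under 0.1. A sum without overlap is therefore given as a description. Of 9 epidermis and fin-fold genes with a row, 8 were tested, 4 rose and none fell. The fin-fold structural genes *and1*, *and2* and *and3* and the cell envelope gene *evpla* were those that rose (log2 fold changes of 1.86, 4.20, 3.61 and 1.25, edgeR adjusted p from 0.00315 to 0.0257). The *evpla* gene missed the threshold after 5 of the 6 single-library removals (highest adjusted p 0.0892). In rzIl26 replicates 1 to 3, *and2* had 25.6, 28.4 and 47.2 CPM, the same order as *noxo1a*, against 1.72, 1.13 and 2.53 CPM in BSA replicates 1 to 3, where the order differed. The summed list, dominated by keratin genes, overlapped between the groups (559 to 746 CPM after rzIl26 and 430 to 632 CPM after BSA), the basal keratin *krt5* was at or near 0, and the basal cell factor *tp63* was under 2 CPM. The part of these genes in the *noxo1a* difference was not tested.

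For leukocytes, the lists gave different pictures. The pan-leukocyte sum overlapped between the groups, at 38.3 to 42.4 CPM after rzIl26 and 40.6 to 47.3 CPM after BSA, and 0 of its 4 tested genes passed the test. The count was also 0 at an unadjusted p under 0.05, by DESeq2 and by limma-voom. No share of all rows at that unadjusted p is given here. With 4 genes tested, a count of 0 cannot show that leukocyte content was unchanged. Most of the pan-leukocyte sum was *lcp1*, and *coro1a* and *spi1b* were at or near 0. The macrophage sum was 23.4 to 31.7 CPM after rzIl26 and 11.7 to 21.1 CPM after BSA, without overlap, with 1 of 3 tested genes called, a median log2 fold change of -0.07 over those 3, and *mpeg1.1*, *c1qa*, *c1qb* and *c1qc* at 0. The other tested genes, the receptor gene *csf1ra* (-0.07, edgeR adjusted p = 0.805) and the granulin gene *grna* (-0.56, adjusted p = 0.379), did not pass, and most of the sum was *mpeg1.2*. The *mpeg1.2* transcript had 20.1, 17.0 and 26.6 CPM in rzIl26 libraries, against 7.29, 14.1 and 5.27 CPM in BSA libraries. The BSA values of *mpeg1.2* stood in the order of those of *noxo1a*, whereas its rzIl26 values did not. The *mpeg1.2* call (log2 fold change 1.27, SE 0.35, adjusted p = 0.043) disappeared after 5 of the 6 single-library removals (highest adjusted p 0.132) and with the replicate block (adjusted p = 0.0655). The neutrophil sum was 18.7 to 38.2 CPM after rzIl26 and 5.47 to 8.30 CPM after BSA, without overlap, with 1 of 3 tested genes called. Most of the sum was the protease gene *mmp13a*, which rose (log2 fold change 2.31, SE 0.39, edgeR adjusted p = 0.0113). The granule gene *lyz* had 2.22, 4.59 and 5.06 CPM, against 1.72, 2.39 and 1.29 CPM in BSA libraries, with overlap. It did not pass (1.16, SE 0.36, adjusted p = 0.0613). It passed only with DESeq2 (0.0167), library totals alone (0.0345), liver content as a covariate (0.0425) and without rzIl26 replicate 1 (0.0195). The gene *npsn* (0.48, adjusted p = 0.314) did not pass, and *mpx* was at or near 0. The part of phagocytes in the *noxo1a*, *nox1* and *ncf1* differences was not tested.

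**Figure D5:**
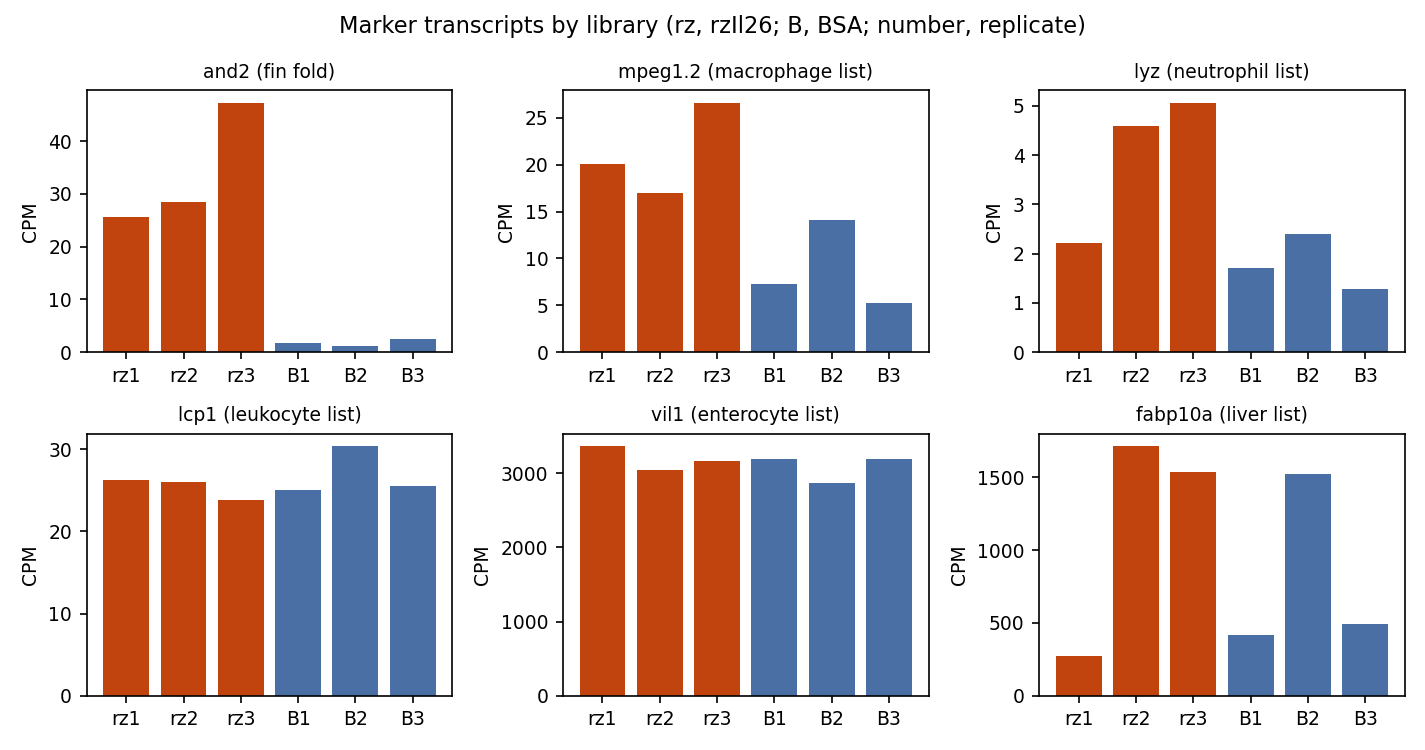
CPM of 6 marker transcripts in each library, rzIl26 in red and BSA in blue. The fin-fold gene *and2* and *mpeg1.2* of the macrophage list do not overlap between the groups. A separation in either direction was seen in 39.6% of all rows tested. The other tested genes of the macrophage list, *csf1ra* (-0.07) and *grna* (-0.56 on the log2 scale), are not plotted and did not pass. The groups overlap for *lyz*, *lcp1* and *vil1*, and *fabp10a* varies within both groups.

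Of epithelial and other cell types, the secretory gene *agr2*, a goblet cell marker, had 182, 187 and 146 CPM in rzIl26 libraries, against 81.7, 118 and 107 CPM in BSA libraries (log2 fold change 0.75, SE 0.16, edgeR adjusted p = 0.0189). Its call was lost without rzIl26 replicate 2 (adjusted p = 0.0647) or BSA replicate 3 (0.0544). The chloride channel gene *cftr* had 44.1, 40.1 and 42.5 CPM after rzIl26, against 27.8, 25.97 and 23.8 CPM after BSA (log2 fold change 0.71, SE 0.09, adjusted p = 0.00561). These were the only genes with a row for the goblet list and the BEST4/OTOP2 list, so that neither cell type can be called from them. The enteroendocrine sum was 56.1 to 69.6 CPM after rzIl26 and 48.2 to 51.2 CPM after BSA, without overlap, with *scg3* and *scgn* at 0. Of its 6 tested genes, only the transcription factor gene *insm1b* rose, with 28.3, 29.3 and 23.7 CPM after rzIl26, against 17.9, 17.7 and 16.7 CPM after BSA (log2 fold change 0.64, SE 0.10, edgeR adjusted p = 0.0107), whichever library was removed. The skin ionocyte list had 1 of 4 tested genes higher and 1 lower, with *foxi3b* at 0, and its sum of 2229 to 2770 CPM after rzIl26 and 3486 to 3746 CPM after BSA was nearly all the sodium pump gene *atp1a1a.4*, which fell (-0.53, adjusted p = 0.0109). The carbonic anhydrase gene *ca15a* rose, with 4.01, 5.84 and 4.19 CPM after rzIl26, against 1.46, 2.92 and 2.38 CPM after BSA (1.08, adjusted p = 0.0374), and missed the threshold without rzIl26 replicate 2 or 3 and BSA replicate 1 or 3 (highest adjusted p 0.120). The smooth muscle sum was 3849 to 4295 CPM after rzIl26 and 3380 to 3808 CPM after BSA, without overlap, with the myosin gene *myh11a* the 1 of 4 tested genes called (0.35, adjusted p = 0.0289); it missed the threshold after 5 of the 6 single-library removals (highest adjusted p 0.0873) and with the replicate block (adjusted p = 0.0515). The enterocyte sum was 18314 to 22106 CPM after rzIl26 and 23198 to 24334 CPM after BSA, with 1 of 8 tested genes lower and none higher. The lower gene was *apoa4b.1*, with a mean of 6481 CPM after rzIl26 and 9220 CPM after BSA (log2 fold change -0.51, edgeR adjusted p = 0.0109). The genes *apoa1a* (-0.44, adjusted p = 0.0543) and *slc15a1b* (-0.43, 0.0774) also lay lower without overlap and did not pass. In the other direction, *fabp6* lay higher without overlap (0.27, 0.125) and did not pass. The values of *vil1* (0.05), *cdh17* (0.09) and *cldn15la* (-0.07) overlapped between the groups. The part of cell makeup in the *noxo1a* difference was not tested.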

How the data were processed

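RNA from pooled larval guts was sequenced and the authors deposited 1 table of raw counts per transcript row, mapped to danRer11 per the labels; the aligner and counter are not given in the sources used here. Counts were tested with edgeR 4.0.16 (quasi-likelihood, TMM factors, filterByExpr, Benjamini-Hochberg threshold 0.05; R 4.3.3) on all 6 libraries, rzIl26 against BSA, and 10576 of 16134 rows passed the filter. CPM values use TMM-scaled totals, and intervals are exact Poisson at the count. Each SE is the absolute log2 fold change divided by the square root of edgeR's quasi-likelihood F statistic. For *noxo1a* the SE is a description, and no test is read from it. P-values measure the spread between these pools. Scripts were tested on simulated data. The members and lists were chosen with earlier results of these data known. Named genes were the oxidase and Rac genes, the 3 lowest adjusted p-values of each further list, the 8 rows nearest to *noxo1a* and 3 neighbours on each side; others are named as chosen after their values were seen, among them *prdx3*, *prdx6*, *txnrd3* and genes given as not passing. Alternatives were other scalings and filters, DESeq2 1.42.0, limma-voom (limma 3.58.1), a replicate block, leaving out each library and, added after seeing the data, a liver covariate. A split of the libraries by liver content was also added then, for *noxo1a* alone. Some listed genes are not reported here.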

Additional observations from a re-analysis of the deposited data

How the results depend on the processing

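The log2 fold change of *noxo1a* was 3.18 to 4.09 when 1 library was left out and 2.86 to 3.67 otherwise. The values 2.86 and 3.67 are those within libraries rich and poor in liver transcripts, a split made after the data were seen. Every rzIl26 library lay above every BSA library for this chosen gene, so an unchanged direction is no further result. Library totals alone called 1783 rows higher and 400 lower (81.7% higher, against 49.1% with TMM factors) and moved the median log2 fold change of all rows by 0.16. Leaving out 1 library gave 339 to 874 rows higher, 398 to 940 lower and 737 to 1814 in all. The oxidase and Rac genes called, 4 in the main fit, numbered 2 with no filter, 1 with the replicate block, 2 with liver content as a covariate, and 1 to 2 when 1 library was left out. The sign of *nrros* turned with library totals (0.079) and without rzIl26 replicate 1, and over the removals of 1 library its value ran from -0.27 to 0.10. The sign of *ncf4* turned with library totals (0.15), at least 10 counts in every library (0.00052), liver content as a covariate (0.037) and without rzIl26 replicate 2 or BSA replicate 3, and over the removals it ran from -0.094 to 0.094. Over 33 single genes, 406 of 495 values kept direction and call, 77 lost the call, 5 gained it and 7 changed sign; the cause was not tested. Whether equal replicate numbers paired the samples could not be decided from so few libraries. The r of deviations was 0.309, 0.112 and 0.008 for equal numbers, and -0.248 to 0.188 for unequal numbers. The replicate block gave 883 rows higher, 844 lower and 3.54 for *noxo1a*. Low counts kept *noxo1b* out of the test.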

Other observations

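In the gene order of the GRCz12tu annotation, the 3 nearest tested genes on each side of *noxo1a* did not share its difference. Genes without a tested row were passed over. On one side, *drc3* had a log2 fold change of 0.85 (SE 0.63, edgeR adjusted p = 0.385) and *tom1l2a* one of -0.20 (SE 0.13, adjusted p = 0.320). Next to them, *srebf1*, a regulator of lipid synthesis, fell, with 47.6 ± 3.54 CPM after rzIl26 and 71.5 ± 4.65 CPM after BSA (SD, n = 3 each; log2 fold change -0.59, SE 0.09, edgeR adjusted p = 0.00942). On the other side, *tbl3* (-0.09), *sco1* (-0.16) and *znf1024* (-0.40, SE 0.14) did not pass the test, with edgeR adjusted p-values of 0.427, 0.369 and 0.0962.

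NOXO1 is known in the mouse inner ear, so otic genes were also read. The summed level of 5 otic genes with a row overlapped between the groups. It was 7.28 to 13.6 CPM after rzIl26 and 6.77 to 7.33 CPM after BSA. Most of the sum was *stm* and *otop1*, with *oc90*, *otomp* and *tectb* under 0.4 CPM in every library. The *stm* transcript lay higher after rzIl26 without overlap and did not pass (log2 fold change 0.79, edgeR adjusted p = 0.122). The *otop1* transcript lay lower, with overlap, and did not pass either (-0.77, adjusted p = 0.189).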
